A study of Mus musculus with 22 samples.

Results

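The nuclear-encoded subunits of respiratory complex I were measured in epididymal white fat of mice breathing normal or reduced oxygen. Genes were included when their name on the array was Nduf followed by a, b, c, s or v and digits, and when at least 1 probe gave a Cy5 signal well above background on at least 10 of the 22 arrays. All 36 genes so named passed, with 47 of their 50 probes, out of 16602 genes tested in all. Each gene was represented by its brightest passing probe, and for all 36 genes that probe was well above background on all 22 arrays. The probes that did not pass belonged to Ndufa3 and Ndufb5, which other probes represent.

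Complex I, NADH:ubiquinone oxidoreductase, takes electrons from NADH, passes them along a chain of iron-sulfur clusters to ubiquinone, and pumps protons across the inner mitochondrial membrane. Its N-module binds NADH, its Q-module binds ubiquinone, and its membrane arm, divided here into a proximal and a distal part, carries the proton pumps. The catalytic core is built from nuclear and mitochondrially encoded subunits, and the other nuclear subunits are accessory: they serve assembly, stability and regulation. Ndufa4, which the naming rule includes, was later assigned to complex IV, cytochrome c oxidase. White adipocytes hold few mitochondria compared with brown adipocytes. In low oxygen, the hypoxia-inducible factors (HIF) are known in cultured cells to lower complex I activity, among others through Ndufa4l2.

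The mice were male C57BL/6JOlaHsd, an inbred strain, and arrived at 10 weeks of age. Fat made up 10% of dietary energy for 3 weeks (low-fat purified diet) and, per the growth protocol, 40% for the 6 weeks that followed (high-fat purified diet). The treatment protocol speaks of a high-fat against a low-fat feeding period without assigning mice to either, so a difference in diet between mice cannot be judged from the labels. After fasting, 12 mice stayed at 20.9% oxygen (normoxia) and 10 mice were placed at 12% oxygen (hypoxia) for 6 hours inside an indirect calorimetry system. On each array the Cy5 channel carried 1 mouse and the Cy3 channel an equimolar pool of all samples, without dye swaps, so a log2 ratio of 0 means the level of the pool and a dye bias of a probe remains in the ratio but is shared by both groups.

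Arrays differed in brightness: between 15.6% and 76.8% of spots were called well above background in the Cy5 channel. The arrays lay on 6 slides, of which 5 held both groups and slide 2 held normoxia arrays 9 and 10 alone. Slide 1 (normoxia 3 and 5, hypoxia 5 and 7) held the 4 dimmest arrays. The 8 adipocyte markers examined, Adipoq and Plin1 among them, were well above background on all 22 arrays. Of the 7 brown-fat or beige markers, Cidea, Cox8b and Cox7a1 were well above background on all 22 arrays. Slc27a2 was so on 10, Ucp1 on 3, Dio2 on 2 and Elovl3 on 0. The differences (hypoxia minus normoxia, log2) were -0.26 for Cidea, -0.25 for Cox8b, -0.13 for Cox7a1 and 0.23 for Slc27a2. None of these 4 had an unadjusted p under 0.05 (limma). Of the 9 skeletal muscle genes, Ckm, Myh1, Mylpf and Mb were detected on 0 arrays, whereas Acta1 was detected on 22. Tnnt3 was detected on 5, Actn3 on 4, and Myh4 and Ckmt2 on 2 each. In whole tissue such as this, fewer cells of a type and less RNA per cell cannot be told apart.

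The first comparison asked whether the messenger RNA of complex I differed between mice at 12% and at 20.9% oxygen. It showed no detectable difference for any member after 6 hours. With limma and Benjamini-Hochberg adjustment over all 16602 genes, 0 of 36 members had an adjusted p under 0.05 (background 0% of all genes), and the smallest adjusted p among them was 0.95. At an unadjusted p under 0.05, 0 of 36 members were called, against 5.3% of all genes (2.57% higher and 2.73% lower in hypoxia). In all 36 members the values of the 2 groups overlapped, as they did in every gene tested.

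The differences were small and lay on both sides of 0. Of the 36 members, 17 had a hypoxia mean above the normoxia mean and 19 below it, and the background share below 0 was 49.6%. The median difference was -0.0030 on the log2 scale, against 0.0011 over all genes. The quartiles of the members were -0.050 and 0.036, inside those of all genes (-0.069 and 0.072). In 30 members the difference was within 0.1 of 0, and in 35 within 0.2; over all genes 7.24% lay beyond 0.2. The even split depended on the source of the values. In the deposited log ratios of Feature Extraction 24 members lay below 0. In the deposited value table, which is not divided by the pool, 34 did, with a median of -0.10 against -0.041 over all genes, and 63.6% of all genes lay below 0 there. The median standard error of a member was 0.38 in that table and 0.096 in the ratios, and its smallest member p (limma, unadjusted) was 0.438.

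Standard errors of the members ranged from 0.073 to 0.15. The 95% intervals of 28 members lay wholly within 0.3 of 0, and over all members the intervals reached from -0.43 (Ndufa1) to 0.37. The plot of differences by module shows these intervals.

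**Figure D1:**
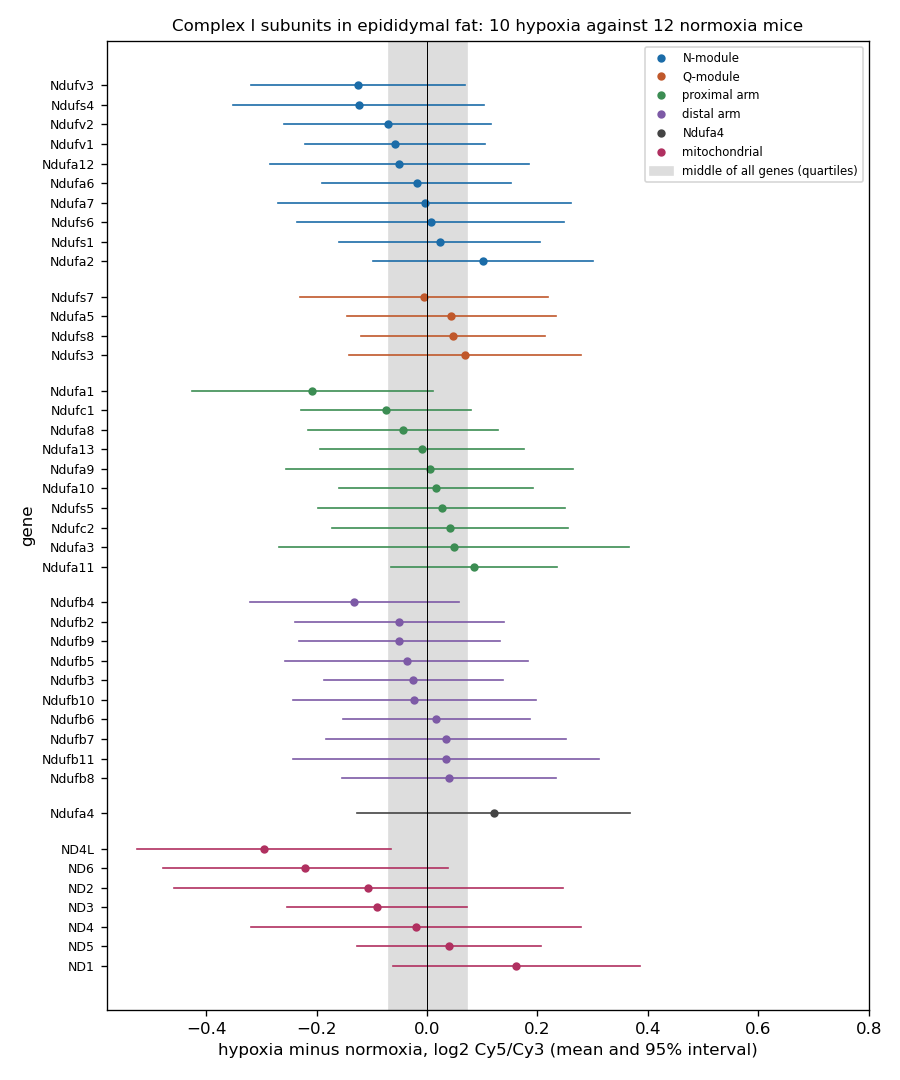
Difference in log2 Cy5/Cy3 (hypoxia, 10 mice, minus normoxia, 12 mice) for 35 of the 36 members and the 7 mitochondrially encoded subunits, grouped by module; points are means, lines 95% intervals from limma, and the grey band spans the quartiles of all genes. Every interval of the members drawn crosses 0, and the interval of ND4L lies below 0.

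The N-module holds the NADH site and the entry of the electron chain. Of its 10 members 3 lay above 0 and 7 below, with a median difference of -0.034. Ndufv1 carries the flavin that accepts electrons from NADH. Its ratios ran from -0.21 over a median of -0.031 to 0.36 in normoxia, and from -0.28 over -0.049 to 0.24 in hypoxia. The mean difference of Ndufv1 was -0.058 ± 0.080 (SE; limma, adjusted p = 0.991), and it was below 0 on all 5 slides that held both groups, by 0.01 to 0.14. The groups overlapped over nearly their whole range.

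Ndufv2, an iron-sulfur partner of Ndufv1, ran from 0.18 over 0.45 to 0.93 in normoxia and from 0.15 over 0.39 to 0.68 in hypoxia. Its difference was -0.071 ± 0.092 (SE). Ndufs1, the largest core subunit and the carrier of several iron-sulfur clusters, ran from -0.79 over -0.21 to -0.017 in normoxia and from -0.58 over -0.21 to -0.089 in hypoxia. Its difference of 0.023 ± 0.089 changed sign with normoxia 9 left out (-0.023) and with slide as a block (-0.016).

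Among the accessory subunits of the N-module, Ndufv3 and Ndufs4 were lowest in hypoxia. Ndufv3, a small subunit that exists in tissue-dependent isoforms, ran from -0.57 over -0.058 to 0.076 in normoxia and from -0.53 over -0.32 to 0.12 in hypoxia. Its difference was -0.12 ± 0.095 (SE; limma, adjusted p = 0.981). The hypoxia median lay below the values of most normoxia mice, and 3 of 10 hypoxia mice lay above the normoxia mean. Ndufs4 stabilises the N-module, and its loss causes a Leigh-like encephalopathy in mice. Its ratios ran from -0.72 over -0.27 to 0.042 in normoxia and from -1.02 over -0.38 to -0.12 in hypoxia. Its difference was -0.12 ± 0.11 (SE), with 4 of 10 hypoxia mice above the normoxia mean, and ranged from -0.39 to 0.05 between slides. With 1 mouse left out in turn it ran from -0.16 to -0.062.

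Ndufa2, an accessory subunit with a thioredoxin-like fold, lay at the other end. It ran from -0.58 over -0.19 to 0.10 in normoxia and from -0.41 over -0.10 to 0.30 in hypoxia. Its difference was 0.10 ± 0.097 (SE; limma, adjusted p = 0.982), and it was above 0 on 4 of 5 slides. In the deposited value table it was -0.026. Both hypoxia mice above 0.2 came from slide 1.

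The Q-module joins the electron chain to ubiquinone. Of its 5 members 3 lay above 0 and 2 below, with a median of 0.044. Ndufs3, a core subunit at the base of the module, ran from -0.61 over -0.15 to 0.22 in normoxia and from -0.66 over -0.020 to 0.21 in hypoxia. Its difference was 0.069 ± 0.10 (SE; limma, adjusted p = 0.993). In hypoxia 9 of 10 mice lay above the normoxia mean, and hypoxia 4, at -0.66, lay far below the other hypoxia mice; leaving out single mice moved the difference between 0.024 and 0.14. It was -0.023 in the Feature Extraction ratios and -0.036 in the value table.

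Ndufs7, which carries the last iron-sulfur cluster before ubiquinone, had the same low mouse. It ran from -0.46 over -0.083 to 0.28 in normoxia and from -0.82 over -0.033 to 0.15 in hypoxia. Its difference was -0.0052 ± 0.11 (SE), and 0.074 without hypoxia 4. Ndufs8, another iron-sulfur core subunit, ran from -0.45 over -0.11 to 0.17 in normoxia and from -0.35 over -0.11 to 0.21 in hypoxia, a difference of 0.047 ± 0.081 (SE).

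The proximal membrane arm held both ends of the range in the membrane. Of its 10 members 6 lay above 0 and 4 below, with a median of 0.010. Ndufa1, a small X-linked membrane subunit needed for assembly, had the lowest difference of all members. It ran from -0.075 over 0.34 to 0.85 in normoxia and from -0.17 over 0.22 to 0.61 in hypoxia. Of the hypoxia mice 3 of 10 lay above the normoxia mean, and 11 of 12 normoxia mice lay above the hypoxia mean. The difference was -0.21 ± 0.11 (SE), 1.15-fold lower in hypoxia, with an unadjusted p of 0.0617 and an adjusted p of 0.95 (limma). It was below 0 on 4 of 5 slides (from -0.32 to 0.10) and stayed below 0 under the 14 alternatives run (from -0.31 to -0.16). Not all of these alternatives could move its difference. Its unadjusted p fell under 0.05 in the Feature Extraction ratios (0.0497), with scaling between arrays and with the replicate number as a block.

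Ndufc1, another small proximal subunit, ran from -0.41 over 0.067 to 0.28 in normoxia and from -0.23 over -0.083 to 0.17 in hypoxia. Its difference of -0.075 ± 0.075 (SE) was small, and it was below 0 on all 5 slides. Ndufc1 and Ndufv1 were the 2 members with 1 sign on all 5 slides. Ndufa11, a membrane subunit next to the contact with complex III in supercomplexes, ran from -0.68 over -0.26 to -0.067 in normoxia and from -0.37 over -0.15 to -0.11 in hypoxia. Its difference was 0.085 ± 0.073 (SE; limma, adjusted p = 0.981), and it was above 0 in all 3 sources of values.

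Ndufa3, by its brightest probe, had the widest spread of all members. It ran from -1.79 over -0.27 to -0.058 in normoxia (SD 0.50) and from -0.71 over -0.39 to -0.073 in hypoxia (SD 0.21). The lowest values were those of normoxia 7 (-1.79) and normoxia 9 (-0.90). The difference was 0.049 ± 0.15 (SE) with all mice and -0.073 without normoxia 7. The other passing Ndufa3 probe, well above background on 22 arrays, did not follow the brightest across mice (r = -0.22). It differed by 0.010 ± 0.063 (SE), so the wide spread was seen with the brightest probe alone. The 2 probes share a run of 6 bases and were designed on different transcript records. Why their spreads differ was not tested. Ndufb11 was lowest in the same mice, at -1.33 in normoxia 7 and -0.89 in normoxia 9.

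The distal membrane arm was represented by Ndufb2 to Ndufb11. Of its 10 members 4 lay above 0 and 6 below, with a median of -0.024. Ndufb4, an accessory subunit of this arm, ran from -0.24 over -0.042 to 0.18 in normoxia and from -0.62 over -0.21 to 0.26 in hypoxia. Its difference was -0.13 ± 0.092 (SE; limma, adjusted p = 0.981), with 3 of 10 hypoxia mice above the normoxia mean. The normoxia mice were close together (SD 0.13, the smallest of the members in normoxia), and the hypoxia mice spread wider (SD 0.28). Over the other 9 distal members the differences ran from -0.050 (Ndufb2) to 0.040 (Ndufb8).

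Ndufa4 had the highest difference of the members. It ran from -0.87 over -0.28 to 0.32 in normoxia and from -0.64 over -0.23 to 0.14 in hypoxia. The difference was 0.12 ± 0.12 (SE; limma, adjusted p = 0.982), 9 of 10 hypoxia mice lay above the normoxia mean, and 4 of 5 slides were above 0. It was above 0 in the value table too. Its paralogue Ndufa4l2, a HIF target, did not match the naming rule. Ndufa4l2 ran from -0.42 over -0.12 to 0.53 in normoxia and from -0.55 over -0.093 to 0.37 in hypoxia. Its difference was 0.013 ± 0.12 (SE; limma, adjusted p = 0.997), with a 95% interval from -0.23 to 0.25. Leaving out single mice moved it between -0.033 and 0.070, and it was -0.11 in the value table. Ndufab1, the acyl carrier protein that complex I also holds, differed by 0.030 ± 0.11 (SE).

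**Figure D2:**
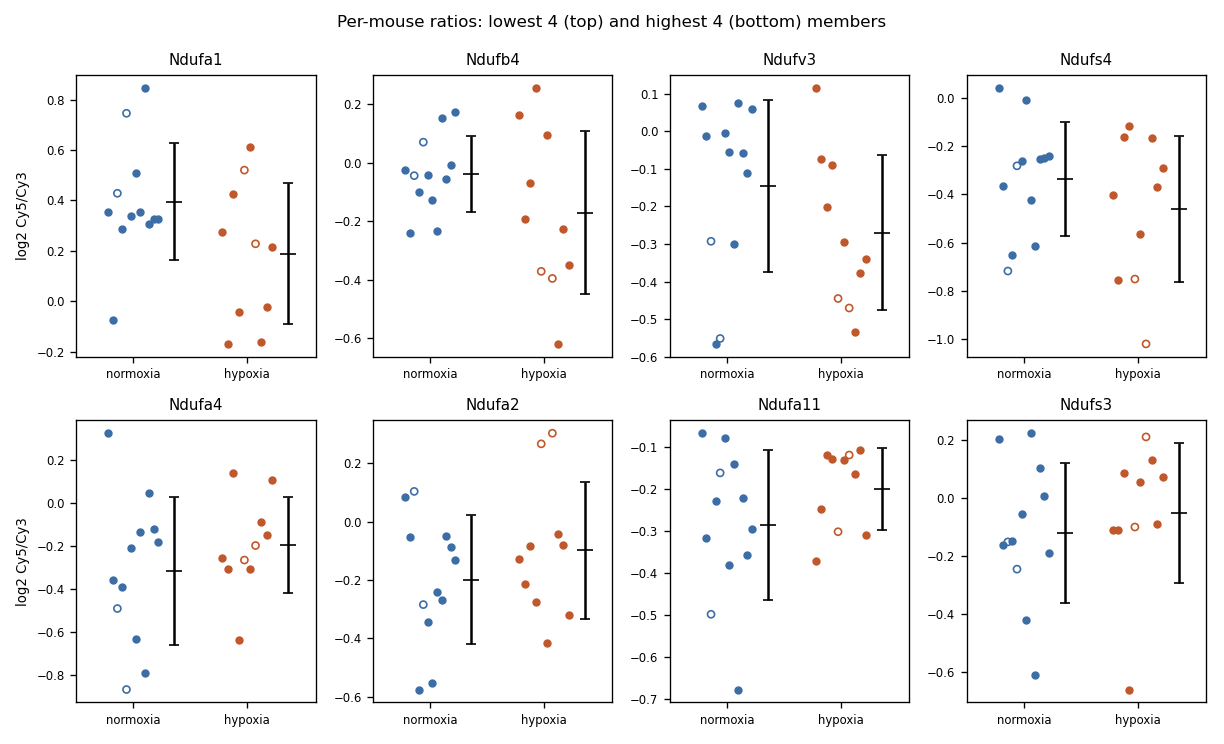
Log2 Cy5/Cy3 of every mouse (blue normoxia, 12; orange hypoxia, 10; open circles slide 1) for the 4 members with the lowest differences (top) and the 4 with the highest (bottom); bars beside the points give mean ± SD. The groups overlap in every panel, and hypoxia 4 lies apart for Ndufs3 at -0.66.

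The core subunits as a set gave the same picture. Of the 7 nuclear core subunits 3 lay above 0 and 4 below, between -0.071 (Ndufv2) and 0.069 (Ndufs3). As to the spread between mice, the hypoxia SD exceeded the normoxia SD in 12 of 36 members, and the median SD was 0.23 in normoxia and 0.21 in hypoxia.

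The 7 mitochondrially encoded subunits are transcribed from the mitochondrial genome and form the proton-pumping core of the membrane arm. Of these 2 lay above 0 and 5 below, with a median of -0.091, and 1 had an unadjusted p under 0.05 in the lower direction, where the background is 2.73% of all genes. ND4L ran from -0.11 over 0.13 to 0.53 in normoxia and from -0.81 over -0.075 to 0.39 in hypoxia. Only 1 of 10 hypoxia mice lay above the normoxia mean, and all 12 normoxia mice lay above the hypoxia mean. Its difference was -0.29 ± 0.11 (SE), with an unadjusted p of 0.014 and an adjusted p of 0.829 (limma), and it was below 0 on all 5 slides, by 0.01 to 0.59. The call did not survive adjustment over all genes.

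ND6, the subunit encoded on the light strand, differed by -0.22 ± 0.13 (SE), from a median of 0.35 in normoxia to 0.11 in hypoxia. At the other end ND1 differed by 0.16 ± 0.11 (SE) and ND5 by 0.039 ± 0.081 (SE). ND3 differed by -0.091 ± 0.079 (SE) and was below 0 on all 5 slides. ND4 and ND4L lie on 1 shared transcript in mammals, yet ND4 differed by -0.020 ± 0.15 (SE) where ND4L differed by -0.29; the gap between them was not tested.

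Assembly factors build the complex but are no part of it. Of the 18 tested 5 lay above 0 and 13 below, with a median of -0.041 and 0 at an unadjusted p under 0.05. Acad9 and Ecsit, members of the assembly complex of the membrane arm, were lowest, at -0.16 ± 0.089 and -0.14 ± 0.089 (SE). Tmem126b, of the same assembly complex, was highest at 0.11 ± 0.11 (SE), and Ndufaf3, which assembles the Q-module, differed by 0.10 ± 0.10 (SE). Members of 1 assembly complex thus lay at both ends of the list. None of the 4 passed the adjusted threshold (limma, adjusted p from 0.952 to 0.984).

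Complex II, which feeds ubiquinone from succinate, was measured for comparison. Its 8 subunits and assembly factors ran from -0.075 (Sdhaf4) to 0.020 (Sdha), with a median of -0.010. The 10 genes of other routes of electrons to ubiquinone or NADH ran from -0.12 (Sqor, sulfide oxidation) to 0.22 (Prodh, proline oxidation), 6 above 0 and 4 below. Neither list had a gene at an unadjusted p under 0.05.

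The list of supercomplex and hypoxia-linked factors held 13 genes, 10 above 0, with a median of 0.060. Pdk1, a HIF-induced kinase that holds back pyruvate dehydrogenase, differed by 0.19 ± 0.097 (SE; unadjusted p = 0.0601, adjusted p = 0.95, limma). Pdk1 was above the normoxia mean in 8 of 10 hypoxia mice. Bnip3, a mitophagy receptor and another HIF target, differed by 0.19 ± 0.098 (SE; unadjusted p = 0.0663, adjusted p = 0.95, limma) and was above 0 on all 5 slides. Higd2a and Bnip3l were the lowest of the list, at -0.11 ± 0.073 and -0.048 ± 0.096 (SE). None of the 13 had an unadjusted p under 0.05.

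Of the 15 regulators of respiratory chain genes tested 5 lay above 0 and 10 below, with a median of -0.041 and 2 at an unadjusted p under 0.05, both lower (2.73% of all genes were). Esrra, the ERR-alpha receptor that drives respiratory genes, ran from -0.20 over -0.00057 to 0.26 in normoxia and from -0.44 over -0.32 to 0.045 in hypoxia. Of the hypoxia mice 1 of 10 lay above the normoxia mean, and all 12 normoxia mice lay above the hypoxia mean. The difference was -0.26 ± 0.075 (SE), 1.20-fold lower, with an unadjusted p of 0.0018 and an adjusted p of 0.508 (limma), and it was below 0 on all 5 slides. Tfb1m, a mitochondrial rRNA methyltransferase, differed by -0.26 ± 0.12 (SE; unadjusted p = 0.0421, adjusted p = 0.923, limma). Gabpa, an ETS factor of respiratory promoters, and Myc were highest, at 0.12 ± 0.081 and 0.12 ± 0.076 (SE).

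The second set of values concerns mice rather than groups. The ratios of each member were centred on its mean over the arrays and averaged over the 36 members for each mouse. This mean was 0.0044 ± 0.10 (SD, n = 12) in normoxia, from -0.15 to 0.17, and -0.0052 ± 0.070 (SD, n = 10) in hypoxia, from -0.15 to 0.11. The lowest were normoxia 7 and hypoxia 4, and the highest was normoxia 1. The difference was -0.0096, and on the 5 slides with both groups it ran from -0.10 to 0.067. The groups overlapped on 4 of these slides, and on slide 4 both hypoxia mice lay above both normoxia mice.

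**Figure D3:**
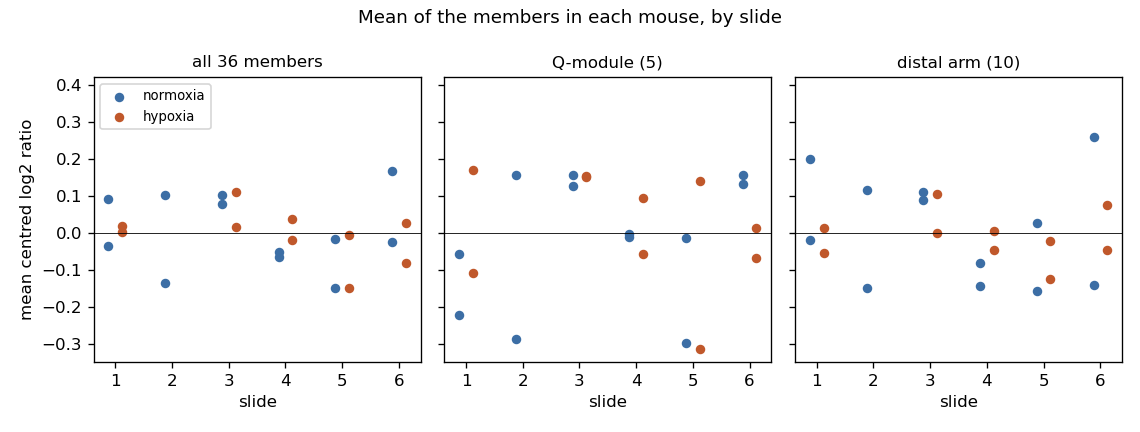
Mean centred log2 ratio per mouse (blue normoxia, orange hypoxia) by slide, over all 36 members (left), the 5 Q-module members (middle) and the 10 distal-arm members (right). Normoxia 7 and hypoxia 4, both on slide 5, and normoxia 9 on slide 2 are the lowest mice of the middle panel, at -0.30, -0.31 and -0.29.

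Markers of other cells were set beside this mean. The 4 red blood cell transcripts tested (Slc4a1 was detected on 3 arrays) all lay above 0 in hypoxia, by 0.28 to 0.60. Of these 3 were at an unadjusted p under 0.05, against 2.57% of all genes higher in hypoxia, and their mean ran from -0.75 to 0.56 in normoxia and from -0.35 to 0.97 in hypoxia. The 6 mesothelial markers lay above 0 in hypoxia, by 0.079 to 0.36, 1 at an unadjusted p under 0.05, with means from -0.49 to 0.42 in normoxia and from -0.47 to 0.90 in hypoxia. Of the 4 endothelial markers 3 lay above 0, and the range was -0.049 (Tek) to 0.23 (Kdr), with 1 at an unadjusted p under 0.05. Of the 6 sperm markers 4 were tested and lay below 0, at -0.78 to -0.060. Their median SE was 0.56, and 0 were at an unadjusted p under 0.05. All 3 mast cell markers lay above 0, by 0.15 to 0.16. Of the 8 adipocyte markers 6 lay above 0, with means from -0.39 to 0.78 in normoxia and from -0.30 to 0.55 in hypoxia. Across the 22 mice, with group means removed, the mean of the members correlated with that of the adipocyte markers at r = 0.20, of the red blood cell markers at -0.090, of the mesothelial markers at 0.19, of the macrophage markers at -0.22, of the mast cell markers at 0.44, and with the share of Cy5 spots well above background at 0.22. With the median Cy5 signal of an array the mean of the members correlated at 0.34, group means removed. With the interquartile range of the members on an array it correlated at -0.60. The part of the markers and of these array measures in the differences was not tested.

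Members varied together only in part. With group means removed, the median correlation over the 630 pairs of members was 0.13 across 22 arrays; 387 pairs lay above 0 and 80 exceeded 0.5. The arrays share slides and the pool, so these correlations are a description. The same median and counts over pairs of all genes were not computed, so no background stands beside them. Among the 4 modules the Q-module pairs were the most alike, with a median of 0.35 and all 10 pairs above 0, and the distal arm followed at 0.26. The N-module and the proximal arm had medians of -0.0040 and -0.050. With each array left out in turn, the median stayed between 0.29 and 0.40 for the Q-module and between 0.18 and 0.27 for the distal arm. The N-module ran from -0.081 to 0.024 and the proximal arm from -0.084 to 0.017, so that both changed sign. Over all members the median ran from 0.089, without normoxia 1, to 0.14. Leaving out 1 array at a time cannot show whether several arrays that are low together carry a median. In the Q-module mean, normoxia 7, normoxia 9 and hypoxia 4 were low together, at -0.30, -0.29 and -0.31.

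The correlation of each member with the mean of the others spread from 0.78 to -0.40. Ndufb9, a distal-arm subunit that binds an acyl carrier protein, was highest at 0.78, followed by Ndufa4 at 0.69 and Ndufs3 at 0.66. In all, 12 members exceeded 0.5, and 17 of 36 were in the top 10% of all genes, whose median was 0.023. At the low end were Ndufa7 at -0.40 and Ndufv2 at -0.30, both of the N-module. Without slide 1 Ndufa7 was at -0.64. The 2 highest Ndufa7 ratios in hypoxia (0.80 and 0.79) and the highest in normoxia (1.16) came from slide 1. Ndufa1 and Ndufb4, the members with the lowest group differences, hardly followed the others, at -0.056 and -0.11.

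**Figure D4:**
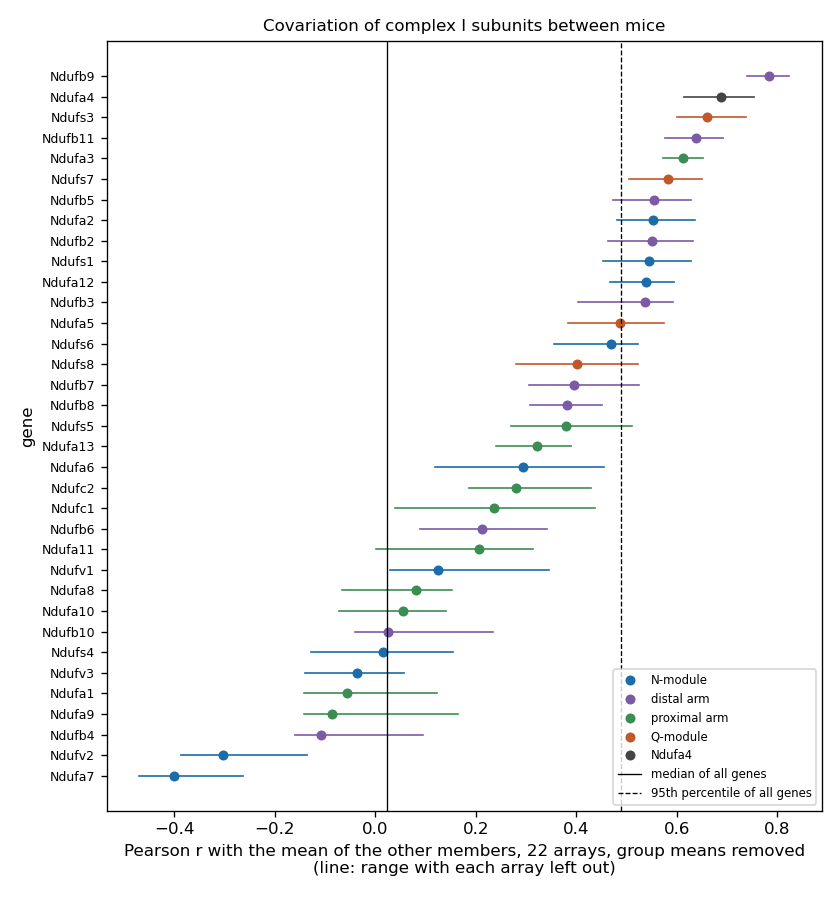
Pearson correlation of 35 of the 36 members, each with the mean of the others, over 22 arrays, group means removed; points are coloured by module, thin lines give the range with each array left out, and vertical lines mark the median and the 95th percentile of all genes. Ndufb9 is highest at 0.78 and Ndufa7 lowest at -0.40.

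Outside the lists and among genes with a matched symbol, the 8 with the highest correlation with the mean of the members were Pex11g (0.88), Cd164 (0.85), Nop10 (0.83), Mtx2 (0.79), Sec61b (0.78), Sem1 (0.77), Dnaja3 (0.77) and Hadh (0.76). A further 2 features without a matched symbol lay above the last of these. With each array left out in turn, Pex11g stayed between 0.86 and 0.92 and Hadh between 0.73 and 0.80. The 8 genes were picked as the highest of all on these same arrays, so these ranges add no support. Among the listed genes that are no members, Aifm1 (0.75) and ND3 (0.67) were highest.

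The promoters of the members were examined because NRF1, ERR, ETS-family and YY1 sites are textbook features of respiratory genes. RefSeq promoter windows (GRCm38.p6, 250 bases before to 50 bases after the start) were matched for 32 of the 36 genes, as 34 windows. The motifs searched, on both strands, were the NRF1 motif of 10 letters and the letters AAGGTCA for ERR, CCGGAAG for ETS factors, AAGATGG for YY1 and ACGTG for HIF. The NRF1 letters were found in 8 of 34 member windows (23.5%), against 4.60% of all 32851 windows. YY1 letters were in 7 windows (20.6%, against 6.34% of all), ETS letters in 4 (11.8%, against 8.86%) and ERR letters in 3 (8.82%, against 4.72%). The HIF core was in 7 windows (20.6%) of 6 genes, close to the 19.6% of all windows. The member windows were richer in G and C (median 59.0%) than all windows (median 52.7%), and the shares were not adjusted for that. Letters of this kind describe the sequence and are not shown to be bound.

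Windows from member genes are printed, 5′ to 3′ on the gene's strand and ending at the base before the start, with matches in capitals. Ndufa1 is shown as the member with the lowest difference, Ndufb4 for its 3 NRF1 matches and its 1 ERR match, and Ndufs3, a core subunit that varied with the other members, for the ETS match before its start; the second of its 2 ETS matches lies after the start, in the bases not printed. The windows lie on the minus strand at chrX:37191239-37191488, chr16:37654369-37654618 and chr2:90904722-90904971.
Ndufa1: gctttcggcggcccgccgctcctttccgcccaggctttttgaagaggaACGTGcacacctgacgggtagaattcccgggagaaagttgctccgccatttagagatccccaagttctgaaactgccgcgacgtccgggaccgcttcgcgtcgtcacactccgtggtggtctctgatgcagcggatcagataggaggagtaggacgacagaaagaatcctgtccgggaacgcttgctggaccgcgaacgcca
Ndufb4: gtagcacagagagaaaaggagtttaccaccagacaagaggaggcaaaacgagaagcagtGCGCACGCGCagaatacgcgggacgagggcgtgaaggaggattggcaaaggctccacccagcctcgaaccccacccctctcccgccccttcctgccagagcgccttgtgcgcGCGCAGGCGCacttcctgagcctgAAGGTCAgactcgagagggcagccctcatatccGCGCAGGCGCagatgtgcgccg
Ndufs3: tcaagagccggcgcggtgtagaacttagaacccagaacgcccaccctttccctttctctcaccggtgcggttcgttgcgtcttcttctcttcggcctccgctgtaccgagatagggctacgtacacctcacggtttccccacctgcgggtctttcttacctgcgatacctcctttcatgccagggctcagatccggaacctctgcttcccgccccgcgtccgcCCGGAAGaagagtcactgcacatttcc

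Several genes carried more than 1 passing probe, which shows how far a ratio depends on the probe. This was so for 9 members, with 20 probes, and in 5 of the 9 the probes gave differences of both signs. Over the 11 pairs of a brightest probe and another probe of its gene, the correlation across mice ranged from -0.22 to 0.72, with a median of 0.23, and 2 pairs exceeded 0.5. The highest was that of 2 Ndufb11 probes that share 55 bases, which differed by 0.035 and 0.022 between the groups. The 2 Ndufb4 probes share 37 bases and correlated at 0.23, with differences of -0.13 and 0.0072. The 2 Ndufb2 probes gave -0.050 and -0.16. Of all 47 passing member probes, 1 was at an unadjusted p under 0.05 (limma), higher in hypoxia, and it was not the brightest of its gene. The background in that direction was 2.57% of all genes, each by its brightest probe. The share over all passing probes was not computed.

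**Figure D5:**
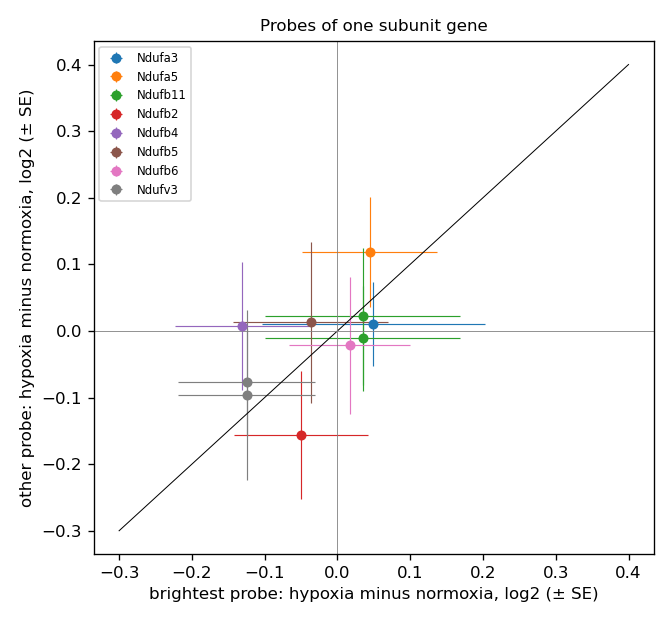
Difference in log2 Cy5/Cy3 (hypoxia minus normoxia) of the other probes of a gene (vertical) against its brightest probe (horizontal) for 8 members with more than 1 passing probe (10 pairs); bars are ± SE and the line marks equality. Ndufb4 gave 0.0072 against -0.13 and Ndufb2 -0.16 against -0.050.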

How the data were processed

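Each of the 22 Agilent 2-colour arrays gave mean spot and median background intensity in Cy5 and Cy3, scanned and deposited by the authors (Feature Extraction 10.7.3.1, per the submitters' processing notes), and a log10 ratio of Cy5 over Cy3 that Feature Extraction had background-subtracted and dye-normalised, per the file headers. A value table, also deposited, holds log2 levels of the same arrays, with column medians from 6.20 to 6.28. These levels follow log2 Cy5 (r from 0.92 to 1.00) and nearly as closely log2 Cy3 of the pool (r from 0.92 to 0.99). Their normalisation was not given in the sources used here. Probe positions are on mm9, per the file headers.

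Intensities were background-corrected (normexp, offset 50) and loess-normalised within arrays in limma 3.58.1 under R 4.3.3, with control spots at weight 0 and flagged spots left out. Spots of a probe were averaged. Probes well above background in Cy5 on at least 10 arrays were kept, and each gene took its brightest probe. Gene names of other probes were updated through RefSeq; members kept the file's name, so a probe that RefSeq renames Ndufb1 is no member. Hypoxia was compared with normoxia with lmFit and eBayes over 16602 genes, adjusted by Benjamini-Hochberg; the code was tested on simulated data. Genes given with their values were the 6 members with the highest and the 6 with the lowest difference, the nuclear core subunits, Ndufa4, Ndufa4l2, and the 2 highest and 2 lowest genes of each list; others named for their spread, probes or correlation were chosen after their values were seen. Values of 1 member are not reported here; counts include it. The members and lists were chosen with earlier results of these data known. Precision is limited by the number of arrays. The labels call the arrays biological replicates and do not say how mice were allotted.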

Additional observations from a re-analysis of the deposited data

Results flagged for a closer look

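Among the 10 hypoxia mice, 5 of the 69 values searched (members, other named genes and means of lists) had a mouse that stood apart from the other 9 by Dixon's criterion, which chance meets in about 1 in 20 groups. In 4 of them it was hypoxia 4, at the low end. Ndufs3 was -0.66 there against -0.11 to 0.21 in the other hypoxia mice, Ndufs7 was -0.82 against -0.25 to 0.15, Ndufa12 was -0.79 against -0.13 to 0.33, and the assembly factor Ndufaf3 was -0.45 against -0.040 to 0.24. Hypoxia 4 was the lowest of the 10 hypoxia mice in 10 of the 36 members and the highest in 4. In the fifth, Ndufa5, a Q-module accessory subunit, was 0.67 in hypoxia 7, an array of slide 1, against -0.096 to 0.24 in the others.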

How the results depend on the processing

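In the main analysis 0 genes and 0 members passed the adjusted threshold, and 880 genes had an unadjusted p under 0.05. The count of genes past the threshold was 1 with the Feature Extraction log ratios, with scaling between arrays and with the filter of all arrays; it was 2 with slide as a fixed block and without slide 1, and 4 with array weights. Leaving out each mouse gave 0 to 3 genes. Members past the threshold were 0 in all of these. Members at an unadjusted p under 0.05 were 1, Ndufa1, with the Feature Extraction ratios, with scaling, and with the replicate block, and 0 to 1 over the mice left out. The median difference of the members moved to -0.10 in the deposited value table and ran from -0.027 to 0.023 over the mice left out. The cause of these shifts was not tested.

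Over the 40 named genes and 14 alternatives, 517 values kept their sign and 34 did not. None passed the threshold in either. Not all alternatives could turn a sign. Aquantile normalisation between arrays leaves the ratios unchanged, and the filter of all arrays keeps the probes of the members. Slide as a fixed block and leaving out slide 2 give the same difference, so the tally counts that difference more than once. With the Feature Extraction ratios the values that turned sign were -0.023 (Ndufs3), -0.038 (Ndufs1), -0.026 (ND5) and 0.016 (Bnip3l). Without background correction the value was -0.0024 (Ndufa4l2), and with scaling the values were -0.0074 (Ndufa4l2) and -0.00023 (Sdhaf1). In the value table they were -0.026 (Ndufa2), -0.036 (Ndufs3), -0.068 (Ndufa3), -0.064 (Ndufs8), -0.030 (Ndufs1), -0.11 (Ndufa4l2), -0.093 (ND5), -0.042 (Tmem126b), -0.044 (Sdhaf1) and -0.063 (Sdha). Both with slide as a fixed block and without slide 2 they were -0.016 (Ndufs1), 0.022 (Ndufs7) and -0.00071 (Sdha). Without slide 1 they were -0.011 (Sdhaf1) and -0.028 (Sdha). With the mean over probes it was 0.026 (Bnip3l). With array weights they were -0.015 (Ndufa3), -0.013 (Ndufs1), -0.0022 (ND5), -0.030 (Sdhaf1) and -0.0039 (Sdha). Signs also turned over the mice left out, where Ndufa3 ran from -0.073 to 0.085, Ndufs1 from -0.023 to 0.057, Ndufs7 from -0.038 to 0.074, Ndufa4l2 from -0.033 to 0.070, Sdhaf1 from -0.023 to 0.044 and Sdha from -0.0062 to 0.051.

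The ratios showed no pairing of the samples by the replicate numbers of the labels. Deviations of same-numbered mice correlated between -0.47 and 0.25, with 2 of 10 pairs over 0.1, and 0 hypoxia mice matched their own number best. A pairing that leaves no mark on the ratios cannot be seen in this way. With the replicate block the median of the members was 0.016, 0 genes passed the threshold, and the values that turned sign were 0.046 (Ndufs7), -0.012 (Ndufa4l2) and 0.025 (Gpd2). Correlations without each array in turn were added after the data were seen. Signal over background limits the 4 arrays of slide 1 most, as the dimmest in Cy5.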
